A study of Homo sapiens and Mus musculus with 20 samples.

Results

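Of the 20 samples of the series, 6 were untreated IMR90 libraries, and these were compared with each other. They were chosen by their titles as the control libraries of 3 separate experiments, with 2 libraries each. Control2 was the control of the A485 experiment, Control3 that of the MS-275 experiment and Control6 that of the pyruvate experiment. IMR90 is a line of human fetal lung fibroblasts that stops dividing after a limited number of doublings. All 6 libraries carried the same labels: lung, IMR90, fibroblast, genotype WT and treatment None. The passage or population doubling of each culture was not among the labels. The study's text says that the cells given pyruvate were senescent, so Control6 came from an experiment on cells described in that way. Experiment, sequencing batch and cell state therefore cannot be told apart in any comparison with Control6. The labels do not say that 2 libraries of a group came from separate cultures, so the p-values measure the spread between these libraries, which may be technical.

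A dividing fibroblast needs the replication machinery in S phase and the kinesins, kinases and kinetochore proteins of mitosis, which are transcribed mainly in G2 phase. Replicative senescence is a lasting exit from the cell cycle. Cyclin-dependent kinase (CDK) inhibitors, chiefly p16 from CDKN2A and p21 from CDKN1A, hold that arrest. Loss of lamin B1, changes in the collagen-rich matrix and secretion of cytokines, proteases and growth factor regulators accompany it.

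Reads per gene were recovered from the deposited values. Over its listed genes each of the 4 libraries of Control2 and Control3 had 39194881 to 42296464 reads, and the Control6 libraries had 30156436 and 27118843. The 3 experiments listed 16683, 16417 and 12013 genes, and 11994 genes were listed in all of them. Of 15548 genes listed with Control2 and Control3, 3554 (22.9%) were not listed with Control6, and those genes had no value there. The lists had unlike read limits. Listed genes had at least 20 reads in the second-highest library of the Control6 experiment, and at least 10 in those of Control2 and Control3. For the 11994 shared genes, the 6 libraries were rescaled together by the median of ratios, and every value below is a read count on that common scale. A difference is on the log2(value + 1) scale, Control6 minus the mean of Control2 and Control3 unless another pair is named.

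Both libraries of Control6 were close to each other (Pearson r = 0.986 across genes, 3.81% of genes apart by more than 2-fold). They were far from the other 4 (r from 0.704 to 0.803, with 50.4% to 57.4% of genes apart by more than 2-fold). The libraries of Control2 and Control3 did not sort by experiment. Control2 replicate 2 and Control3 replicate 1 had r = 0.984, and only 2.86% of genes differed by more than 2-fold. Control2 replicate 2 differed more from its own mate (r = 0.965, 8.56%), and so did Control3 replicate 1 (r = 0.924, 20.1%). Control3 replicate 2 stood apart from the other libraries of both groups. It had 8.71% of its reads in genes named RPL or RPS with a number, as most ribosomal protein genes are, against 3.59% to 4.21% in those 3. Its difference from Control3 replicate 1 fell with transcript length (Spearman rho = -0.61, a description across genes). Every pair of libraries, replicates included, differed by more than sampling noise.

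The differences of Control6 followed base composition. The read-weighted GC content of its libraries was 52.9% and 52.8%, against 48.9% to 49.9% in Control2 and Control3. Across 11869 genes with an annotated transcript, the difference rose with transcript GC content (Spearman rho = 0.72, a description across genes). In 10 bins of equal size by GC content, the bin with the lowest content had a median difference of -3.07, and the next to highest had 0.85. The 2 pyruvate libraries, from the same experiment and gene list, had rho = 0.21 and a median of -1.19 in the lowest bin. Because of this trend, each gene's difference between Control6 and the mean of the others is followed by the trend-removed difference, from a fit to values from which each library's smooth trend on transcript GC content and length had been subtracted. Whether the trend came from the libraries or from the cells was not tested.

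**Figure D1:**
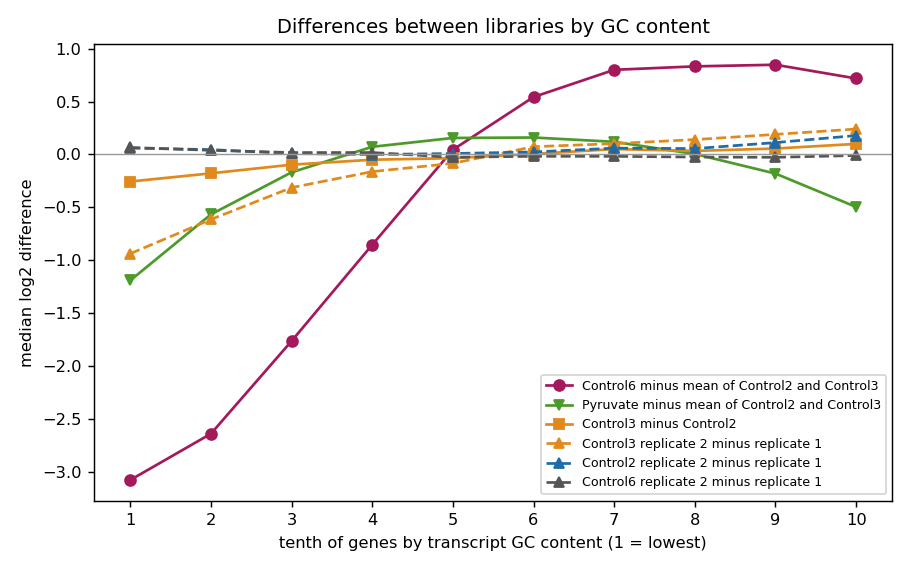
Median log2 difference (y axis) in 10 bins of 11869 genes ordered by transcript GC content (x axis, 1 = lowest). Control6 minus the mean of Control2 and Control3 ran from -3.07 in the lowest bin to 0.85 in the next to highest, while its own 2 replicates (grey dashed line) differed by less than 0.1 in every bin, and Control3 replicate 2 minus replicate 1 ran from -0.94 to 0.24.

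A gene was called when its adjusted p (limma, Benjamini-Hochberg over all genes tested) was under 0.05 and its difference exceeded 1 in size. Of 11994 genes, 2157 (18%) were higher in Control6 and 3874 (32.3%) were lower. After trend removal 1491 of 11869 genes (12.6%) were higher and 1537 (12.9%) were lower. Of the genes called first, 619 of 2132 higher ones (29%) and 1263 of 3843 lower ones (32.9%) were called in the same direction again, and 198 of the lower ones were then called higher. The split depended on the scaling: 35.8% of the calls were higher in Control6, against 4.96% on the deposited scale, where the median of all genes was shifted to -0.78, 20.3% at equal totals (median -0.23) and 54.4% after quantile normalization (median 0.44). With count models in place of limma, the numbers were 2365 higher (19.7%) and 3835 lower (32%) by edgeR, and 2157 (18%) and 4007 (33.4%) by DESeq2. Without Control3 replicate 2, limma called 2322 higher (19.4%) and 4024 lower (33.6%). Both Control6 libraries lay above all 4 others for 4537 genes (37.8%) and below them for 4618 (38.5%). Against Control2 alone, 2146 genes (17.9%) were higher and 3829 (31.9%) lower, and against Control3 alone 1977 (16.5%) and 3677 (30.7%), in comparisons that share the Control6 libraries. Of the genes named below as higher, CDKN2D, CCND1, GLB1, ACTA2, CNN1, PLAU, COL6A1, LIF, STC2, IGF2R, HOXB5 and P4HB lost their call on the deposited scale, and CCND1, ACTA2, PLAU, COL6A1, LIF, STC2 and P4HB after quantile normalization. In bulk RNA, fewer cells of a type and less RNA per cell cannot be told apart.

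Mitosis genes were lower in Control6 (18 of 40, or 45%, against 32.3% of all genes), and after trend removal 32.5% of them were, against 12.9%. Replication genes (20% lower, and 15% after trend removal) and cyclin and E2F genes (37.9% and 13.8%) lay below or near the shares over all genes. MKI67, which encodes the proliferation marker Ki-67, had 6696 and 2038 in Control2, 3797 and 304 in Control3 and 240.1 and 105 in Control6 (difference -3.64 ± 1.03 (SE), adjusted p = 0.0209, trend-removed -3.40). Control3 replicate 2, at 304, lay close to Control6 well under the other 3 libraries, and this call was lost without Control2 replicate 1 (-3.21), Control6 replicate 1 (-4.23) or Control6 replicate 2 (-3.05). TOP2A, the topoisomerase that untangles sister chromatids, had 7479 and 2760 in Control2, 5182 and 729 in Control3 and 32.2 and 43.1 in Control6 (-6.28 ± 0.80 (SE), adjusted p = 0.000984, trend-removed -3.47). CDK1, the kinase that drives entry into mitosis, had 1987 and 443 in Control2, 874 and 676 in Control3 and 5.86 and 38.3 in Control6, and the Control6 values stood on 4 and 24 reads (-5.70 ± 0.85 (SE), adjusted p = 0.00175, trend-removed -3.02). In both genes every Control6 library lay below every other library. CCNB1, the cyclin partner of CDK1, had 6150 and 1417 in Control2, 2330 and 1799 in Control3 and 966 and 956 in Control6 and was not called (-1.35 ± 0.55 (SE), adjusted p = 0.0669), although its Control6 libraries were the lowest. Counting reads directly, edgeR and DESeq2 did call CCNB1, at -1.48 and -1.54, and limma did without Control2 replicate 2 (-1.88). Its trend-removed difference was 0.24.

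The mitosis list held 54 genes. Of these, 40 were listed in all 3 experiments and tested, and none was higher and 18 were lower in Control6, with a median of -1.35 against 0.06 for all genes. After trend removal, 0 were higher and 13 lower, and the median stayed at -1.31. Another 11 members were listed with Control2 and Control3 but not with Control6. Among them were the kinesins KIF11, with 1991 and 677 in Control2 and 1329 and 210 in Control3, and CENPE, with 1220 and 371 in Control2 and 983 and 4.85 in Control3. All 11 averaged at least 100 in Control2 and Control3, and they were 11 of 51 such members (21.6%), where 447 of 11256 genes at that level (3.97%) were not listed with Control6. The unlisted genes at that level had a median transcript GC content of 39.2%, against 47.9% for the listed ones, and the same gene list served the 2 pyruvate libraries, so that unlisted genes have no value there either. MAD2L1, a spindle checkpoint protein, had 2133 and 568 in Control2, 852 and 793 in Control3 and 45.4 and 41.5 in Control6 (difference -4.42), but its trend-removed difference of -1.57 (adjusted p = 0.0584) missed the threshold. KIF23, a kinesin of cytokinesis, had 2613 and 1015 in Control2, 1135 and 535 in Control3 and 76.1 and 76.6 in Control6 (-3.87 ± 0.47 (SE), adjusted p = 0.000858, trend-removed -1.97).

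For 2 of these genes and for SMC4, a subunit of condensin, the RefSeq promoter window is shown, since they had the largest falls among mitosis genes whose window holds a CHR element, the cell cycle genes homology region through which many G2 and M phase genes are silenced in resting cells. SMC4 had 3152 and 1244 in Control2, 2736 and 309 in Control3 and 33.7 and 22.4 in Control6 (-5.57 ± 0.87 (SE), adjusted p = 0.00211, trend-removed -2.57). Each window runs from 250 bases before to 50 after an annotated start, 5′ to 3′ on the gene's strand in GRCh38.p14, with capitals for the letters searched on either strand, which were TTTGAA for CHR, the box CCAAT that many of these genes carry beside it, and TTTCGCGC or TTTGGCGC for E2F.
TOP2A, chr17:40417847-40418146, minus strand: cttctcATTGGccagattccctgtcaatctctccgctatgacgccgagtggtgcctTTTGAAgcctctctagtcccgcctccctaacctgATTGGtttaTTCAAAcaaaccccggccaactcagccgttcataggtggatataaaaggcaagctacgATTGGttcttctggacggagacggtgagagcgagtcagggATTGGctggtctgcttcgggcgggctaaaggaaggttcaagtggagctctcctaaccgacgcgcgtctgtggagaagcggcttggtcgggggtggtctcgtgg
CDK1, chr10:60778081-60778380, plus strand: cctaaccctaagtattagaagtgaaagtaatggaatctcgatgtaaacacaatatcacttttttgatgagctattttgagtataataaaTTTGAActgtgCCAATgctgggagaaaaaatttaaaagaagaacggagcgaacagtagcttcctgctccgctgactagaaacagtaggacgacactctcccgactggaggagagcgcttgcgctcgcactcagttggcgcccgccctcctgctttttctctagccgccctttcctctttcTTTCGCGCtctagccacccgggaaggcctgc
SMC4, chr3:160399400-160399699, plus strand: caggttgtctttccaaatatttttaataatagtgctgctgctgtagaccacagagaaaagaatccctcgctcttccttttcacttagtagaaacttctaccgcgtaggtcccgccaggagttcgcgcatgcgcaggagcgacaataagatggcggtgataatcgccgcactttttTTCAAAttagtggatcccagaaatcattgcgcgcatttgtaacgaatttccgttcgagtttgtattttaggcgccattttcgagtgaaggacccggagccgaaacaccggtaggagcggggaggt
The TOP2A window holds 2 CHR and 4 CCAAT matches, the CDK1 window 1 CHR, 1 CCAAT and 1 E2F match, and the SMC4 window 1 CHR match. No motif's letters contain those of another. A CHR match stood in 20 of 33 windows of tested mitosis genes (60.6%), 1 of 34 of replication genes (2.94%), 1 of 17 of collagen genes (5.88%) and 832 of 9216 of all tested genes with a window (9.03%). The corresponding shares for CCAAT were 75.8%, 52.9%, 35.3% and 36.4%, and for E2F letters 3.03%, 23.5%, 0% and 2%. These are matches of letters, and no binding was measured.

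Replication genes were less uniform. Of 45 members, 40 were tested, and 2 were higher and 8 lower (median -0.33). After trend removal 3 were higher and 6 lower (median -0.51). PCNA, the sliding clamp of DNA polymerase, had 3704 and 2855 in Control2, 3046 and 3847 in Control3 and 615 and 591 in Control6 (-2.47 ± 0.20 (SE), adjusted p = 0.000302, trend-removed -1.34). RRM1, the large subunit of ribonucleotide reductase, had 5343 and 2346 in Control2, 2726 and 2673 in Control3 and 335 and 322 in Control6 (-3.23 ± 0.33 (SE), adjusted p = 0.000498, trend-removed -1.74). For PCNA the 4 other libraries were within 2855 to 3847, so the groups were well apart. GMNN, which encodes the licensing inhibitor geminin, had 839 and 397 in Control2, 583 and 565 in Control3 and 23.4 and 51.1 in Control6 (-4.01 ± 0.45 (SE), adjusted p = 0.000629, trend-removed -2.94). MCM2, a subunit of the replicative helicase, overlapped between groups with 1199 and 478 in Control2, 717 and 611 in Control3 and 883 and 739 in Control6 (0.19 ± 0.38 (SE), adjusted p = 0.682, trend-removed -0.61). The 5 members POLA1, PRIM1, POLE2, CLSPN and WDHD1 were listed with Control2 and Control3 only, at up to 701.5 for POLA1 and down to 48.8 for PRIM1.

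Of cyclins, E2F factors and their partners, 5 were higher (17.2%) and 11 lower (37.9%) of 29 tested, near the 18% and 32.3% of all genes (33 members, median -0.39). After trend removal 3 were higher and 4 lower, with a median of -0.03. CCND1, the G1 cyclin induced by growth signals, had 41950 and 64060 in Control2, 56400 and 41450 in Control3 and 137600 and 127400 in Control6 (1.40 ± 0.26 (SE), adjusted p = 0.00429, trend-removed 1.01), and its call was lost without Control6 replicate 1 (1.35), after quantile normalization (0.66) and on the deposited scale (0.55). CCND3, a related D-type cyclin, had 3185 and 3162 in Control2, 2075 and 2578 in Control3 and 9944 and 10360 in Control6 (1.91 ± 0.17 (SE), adjusted p = 0.000332), with a trend-removed difference of 0.97 that was not called. RB1, the retinoblastoma repressor of E2F, had 2470 and 2168 in Control2, 2711 and 718 in Control3 and 83.5 and 140.5 in Control6 (-4.04 ± 0.54 (SE), adjusted p = 0.00114, trend-removed -1.10). Control3 replicate 2 was again the lowest of the 4 other libraries. LIN54, a DNA-binding subunit of the complex that recognises CHR elements, had 927 and 733 in Control2, 930.5 and 473 in Control3 and 33.7 and 67 in Control6 (-3.93 ± 0.42 (SE), adjusted p = 0.000537, trend-removed -1.11). SKP2, which marks CDKN1B protein for destruction, had 2379 and 1510 in Control2, 1704 and 1275 in Control3 and 372 and 389.5 in Control6 (-2.13 ± 0.26 (SE), adjusted p = 0.00085), and nothing of this difference was left after trend removal (0.0045). CCNE2, E2F8 and LIN9 were listed with Control2 and Control3 only.

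**Figure D2:**
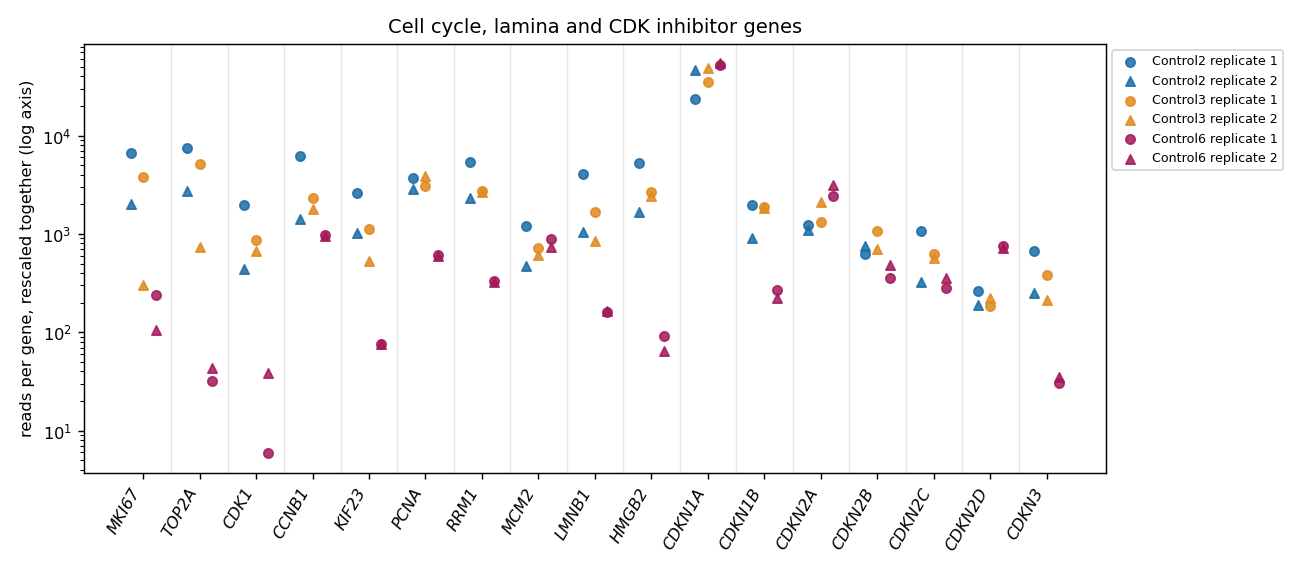
Rescaled reads (y axis, log scale) of cell cycle, lamina and CDK inhibitor genes, 1 point per library, coloured by group and shaped by replicate. Control6 lies below all 4 other libraries for MKI67, TOP2A, CDK1, PCNA, LMNB1, HMGB2, CDKN1B and CDKN3, above them for CDKN1A, CDKN2A and CDKN2D, and within their range for MCM2.

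The CDK inhibitor genes did not rise as a group in Control6. Of 8 members 7 were tested, and CDKN2D was higher (14.3%, against 18% of all genes). CDKN1B and CDKN3 were lower (28.6%, against 32.3%), and the other 4 were not called (median -0.88). After trend removal 0 were higher and 2 lower (28.6%, against 12.9% of all genes, median -0.25). CDKN2A (chr9:21967752-21995301 in hg38), which encodes p16 and, from an overlapping transcript, p14ARF, had 1225 and 1106 in Control2, 1337 and 2108 in Control3 and 2426 and 3111 in Control6. Both Control6 libraries were the highest, and the adjusted p passed the threshold, but the difference did not reach 1 (0.97 ± 0.25 (SE), adjusted p = 0.0135). Without Control2 replicate 1 or Control3 replicate 2 it did (1.01 and 1.14), as it did by edgeR (1.01) and after quantile normalization (1.13). Against Control2 alone CDKN2A was called higher, by 1.24 (adjusted p = 0.0108), and against Control3 alone it was not, at 0.71 (adjusted p = 0.0719). The trend-removed difference was 0.11 (adjusted p = 0.603). CDKN1A, which encodes p21, had 23660 and 46000 in Control2, 35160 and 48460 in Control3 and 52460 and 54100 in Control6 and was not called (0.53 ± 0.31 (SE), adjusted p = 0.175, trend-removed -0.44). Both Control6 libraries were the highest for CDKN1A, but its Control2 libraries alone differed by 1.94-fold.

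CDKN2B, the neighbour of CDKN2A that encodes p15, had 622 and 746 in Control2, 1066 and 706 in Control3 and 359 and 484 in Control6 (-0.88 ± 0.27 (SE), adjusted p = 0.0287, trend-removed 0.12) and was below the fold threshold. It was called lower without Control3 replicate 2 (-1.03), at equal totals (-1.18) and on the deposited scale (-1.73). CDKN2C, which encodes p18, had 1063 and 321 in Control2, 622 and 575 in Control3 and 281 and 354 in Control6 (-0.90 ± 0.48 (SE), adjusted p = 0.137, trend-removed -0.25). It was called lower without Control2 replicate 2 (-1.33) and on the deposited scale (-1.75), and was at -0.47 without Control2 replicate 1. CDKN2D, which encodes p19, had 261 and 190.5 in Control2, 184 and 221 in Control3 and 745 and 717 in Control6 (1.78 ± 0.26 (SE), adjusted p = 0.00174), and its trend-removed difference of 0.93 was not called. CDKN1B (chr12:12685498-12722369 in hg38), which encodes p27, had 1988 and 914 in Control2, 1892 and 1818 in Control3 and 266 and 224 in Control6 (-2.69 ± 0.34 (SE), adjusted p = 0.000907, trend-removed -2.44 (adjusted p = 0.00185)). Its fall was called with and without the trend, against Control2 alone (-2.46) and against Control3 alone (-2.92). CDKN3, a phosphatase that acts on CDKs and is itself expressed in dividing cells, had 669 and 250 in Control2, 382 and 212 in Control3 and 30.7 and 35.1 in Control6 (-3.34 ± 0.48 (SE), adjusted p = 0.00156, trend-removed -1.53). CDKN1C, which encodes p57, was listed with Control3 only, at 89.7 and 105.

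Lamina and high mobility group (HMG) chromatin genes were low in Control6. All 15 members were tested, 1 was higher and 8 lower (53.3%, against 32.3% of all genes), with a median of -2.18. After trend removal none was higher and 6 were lower (40%, against 12.9%, median -0.95). LMNB1 (chr5:126776623-126837020 in hg38), which encodes lamin B1, had 4077 and 1058 in Control2, 1661 and 851 in Control3 and 159.6 and 163 in Control6 (-3.28 ± 0.56 (SE), adjusted p = 0.00302, trend-removed -3.43 (adjusted p = 0.00363)). Its 4 other libraries spread over 4.79-fold, yet the lowest of them was above both Control6 libraries. TMPO, an inner nuclear membrane protein that binds lamins, had 4884 and 2179 in Control2, 3337 and 2002 in Control3 and 136 and 134 in Control6 (-4.42 ± 0.38 (SE), adjusted p = 0.000315, trend-removed -2.21). HMGB2, a chromatin protein abundant in dividing cells, had 5304 and 1670 in Control2, 2642 and 2420 in Control3 and 92.2 and 63.9 in Control6 (-5.14 ± 0.46 (SE), adjusted p = 0.000349, trend-removed -2.77). HMGA2 had 9196 and 13080 in Control2, 11650 and 10140 in Control3 and 1730 and 1719 in Control6 (-2.66 ± 0.20 (SE), adjusted p = 0.000271, trend-removed -1.35). HMGB1 had 13380 and 7055 in Control2, 9618 and 9369 in Control3 and 610.5 and 680.1 in Control6 (-3.90 ± 0.27 (SE), adjusted p = 0.000265), and its trend-removed difference of -0.95 was not called.

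In the matrix, the abundant fibrillar collagens were not called, POSTN, LUM, BGN and AEBP1 were lower in Control6 in a list whose share of lower genes was that of all genes, and the plasminogen activators PLAT and PLAU were higher. COL1A1, a chain of type I collagen, had 495200 and 523000 in Control2, 455200 and 110800 in Control3 and 434600 and 406700 in Control6 (0.31 ± 0.56 (SE), adjusted p = 0.641, trend-removed -0.15). Control3 replicate 2 was far below the other 5 libraries, which overlapped. COL1A2, the other chain, had 316300 and 397700 in Control2, 346800 and 194800 in Control3 and 537200 and 519700 in Control6 (0.80 ± 0.34 (SE), adjusted p = 0.0775, trend-removed 0.23), and was called only without Control3 replicate 1 (1.01). COL3A1 had 103500 and 78090 in Control2, 86780 and 72760 in Control3 and 151500 and 146300 in Control6 (0.82 ± 0.23 (SE), adjusted p = 0.0207, trend-removed 0.39) and was below the fold threshold, with both Control6 libraries the highest. Of 24 collagen genes tested (28 members), 3 were higher (12.5%) and 1 was lower (4.17%), against 18% and 32.3% of all genes, with a median of 0.50. After trend removal 1 was higher and 1 lower (4.17% each, against 12.6% and 12.9%, median 0.11). Quantile normalization put the collagen median at -0.22 relative to all genes. COL6A1, a chain of type VI collagen, had 51010 and 119700 in Control2, 115300 and 84040 in Control3 and 223100 and 204800 in Control6 (1.29 ± 0.38 (SE), adjusted p = 0.024, trend-removed 0.72, not called), and lost its call without Control2 replicate 1 (0.98), Control6 replicate 1 (1.22) or Control6 replicate 2 (1.35), at equal totals (0.99), after quantile normalization (0.46) and on the deposited scale (0.44). COL14A1 had 788 and 822 in Control2, 1177 and 669.7 in Control3 and 401 and 298 in Control6 (difference -1.29, trend-removed -0.11, not called), and lost its call without Control6 replicate 2 (-1.07). COL4A3, COL4A4 and COL10A1 were listed in none of the 3 experiments, and COL21A1 with Control3 only.

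Of 41 matrix glycoprotein and proteoglycan genes tested (47 members), 6 were higher and 13 lower (31.7% against 32.3% of all genes, median -0.10), and after trend removal 4 and 10 (24.4% lower against 12.9%). POSTN, a matricellular protein that helps collagen assembly, had 6392 and 8689 in Control2, 13610 and 4394 in Control3 and 140.5 and 161 in Control6 (-5.65 ± 0.44 (SE), adjusted p = 0.000287, trend-removed -3.08). LUM, the keratan sulfate proteoglycan lumican that organises collagen fibrils, had 7482 and 8364 in Control2, 12170 and 7372 in Control3 and 279.6 and 265 in Control6 (-4.99 ± 0.24 (SE), adjusted p = 0.000229, trend-removed -2.27). BGN, the related biglycan, had 3857 and 6049 in Control2, 9631 and 2760 in Control3 and 422 and 327 in Control6 (-3.74 ± 0.50 (SE), adjusted p = 0.00116, trend-removed -4.65). The fall of BGN was larger after trend removal, whereas those of POSTN and LUM were smaller. AEBP1, a collagen-binding secreted protein, had 166 and 410.2 in Control2, 211 and 204 in Control3 and 46.9 and 3.19 in Control6, from 32 and 2 reads in the Control6 libraries (-4.04 ± 0.95 (SE), adjusted p = 0.0104, trend-removed -4.67). Without Control6 replicate 2 its difference was -2.29. FN1, fibronectin, had 393800 and 568900 in Control2, 571700 and 85220 in Control3 and 563800 and 447800 in Control6 (0.64 ± 0.73 (SE), adjusted p = 0.468, trend-removed 0.47), and was called only without Control3 replicate 1 (1.32). ELN, elastin, was listed with Control2, at 2118 and 304, and with Control3, at 565 and 410, but not with Control6. MFAP5 and VTN were also listed with Control2 and Control3 only, OGN and MGP with Control3 only, and TNXB in none.

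Enzymes that cross-link and fold collagen were split, with 6 higher (26.1%) and 4 lower (17.4%) of 23 tested (25 members, median 0.55). The shares of all genes were 18% and 32.3%. After trend removal the counts were 3 (13%) and 2 (8.7%), against 12.6% and 12.9% (median 0.13). LOXL2, a lysyl oxidase, had 34550 and 42850 in Control2, 27890 and 26000 in Control3 and 149600 and 142800 in Control6 (2.18 ± 0.20 (SE), adjusted p = 0.000343, trend-removed 1.42). P4HA1, a prolyl hydroxylase subunit also induced by hypoxia, had 11190 and 11790 in Control2, 9330 and 12770 in Control3 and 1927 and 2232 in Control6 (-2.43 ± 0.19 (SE), adjusted p = 0.000291), and -0.13 after trend removal. FKBP14, a collagen chaperone, had 3367 and 3568 in Control2, 3902 and 2847 in Control3 and 741 and 841 in Control6 (difference -2.10), which turned to 0.67 with the trend removed. ADAMTS3 and ADAMTS14, which trim procollagen, were not listed with Control6.

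Matrix proteases and their inhibitors were higher in Control6 for 9 (42.9%) and lower for 1 (4.76%) of 21 tested genes (29 members, median 0.60). The shares of all genes were 18% and 32.3%. After trend removal 8 were higher (38.1%, against 12.6%) and 2 lower (9.52%, against 12.9%), with a median of 0.50. Without Control3 replicate 2 the counts were 6 and 0, and on the deposited scale 3 and 3. PLAT, the tissue-type plasminogen activator, had 3194 and 10210 in Control2, 6966 and 15690 in Control3 and 118600 and 118000 in Control6 (3.94 ± 0.52 (SE), adjusted p = 0.00113, trend-removed 3.22). PLAU, the urokinase-type activator, had 15280 and 16680 in Control2, 17350 and 16400 in Control3 and 41360 and 42280 in Control6 (1.35 ± 0.16 (SE), adjusted p = 0.000823), with a trend-removed difference of 0.50 that was not called. In both genes the 2 Control6 libraries lay above all others. The collagenase MMP1 had 14220 and 5165 in Control2, 6545 and 9099 in Control3 and 10610 and 10960 in Control6 and was not called (0.41 ± 0.40 (SE), adjusted p = 0.4), but its trend-removed difference of 1.51 (adjusted p = 0.0164) was. MMP3, stromelysin, had 153 and 360.4 in Control2, 87 and 88 in Control3 and 79.1 and 150.1 in Control6 (-0.39 ± 0.46 (SE), adjusted p = 0.477, trend-removed 0.16), and the inhibitor TIMP1 had 25850 and 23500 in Control2, 20590 and 25910 in Control3 and 23010 and 23720 in Control6 (-0.03 ± 0.18 (SE), adjusted p = 0.891, trend-removed -0.90). MMP7, MMP9, MMP11, MMP12 and MMP13 were listed in none of the experiments, MMP8 and MMP10 with Control3 only, and MMP16 with Control2 and Control3.

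Contractile and TGF-beta response genes gave 9 higher (36%) and 5 lower (20%) of 25 tested (26 members, median 0.50). The shares of all genes were 18% and 32.3%. After trend removal the counts were 1 (4%) and 6 (24%), against 12.6% and 12.9% (median 0.22). ACTA2, smooth muscle actin, had 11400 and 12550 in Control2, 10030 and 11680 in Control3 and 27870 and 28710 in Control6 (1.31 ± 0.17 (SE), adjusted p = 0.000963, trend-removed 0.59, not called). CNN1, calponin, had 2619 and 2874 in Control2, 2948 and 2952 in Control3 and 8654 and 8493 in Control6 (1.59 ± 0.15 (SE), adjusted p = 0.000419, trend-removed 0.70, not called). TGFBR1, the type I TGF-beta receptor, had 3697 and 3017 in Control2, 5449 and 2226 in Control3 and 192 and 239.5 in Control6 (-3.99 ± 0.37 (SE), adjusted p = 0.000376, trend-removed -1.10). SKIL, a repressor of that pathway, had 2151 and 1805 in Control2, 2001 and 651 in Control3 and 55.6 and 44.7 in Control6 (-4.88 ± 0.46 (SE), adjusted p = 0.00038, trend-removed -1.76). Quantile normalization put the list's median at -0.24 relative to all genes. MYH11 was listed in none of the experiments.

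Among secreted factors, 1 of 12 tested cytokine genes (8.33%) was called higher in Control6, below the 18% of all genes. Of the genes for binding and uptake of insulin-like growth factors, 3 of only 9 tested were (33.3%). Of 34 cytokines and chemokines, 23 were listed with both Control2 and Control3, and 11 of those were not listed with Control6. Over all genes 3554 of 15548 (22.9%) were not. Of the 12 tested, LIF was higher and CXCL12 lower (median -0.32). After trend removal 3 were higher and 2 lower (25% and 16.7%, against 12.6% and 12.9% of all genes, median 0.39). IL6 had 142 and 507 in Control2, 152 and 531 in Control3 and 227 and 184 in Control6 (-0.43 ± 0.67 (SE), adjusted p = 0.593, trend-removed 1.06). CXCL8, the neutrophil attractant interleukin-8, had 243 and 3718 in Control2, 154 and 7832 in Control3 and 68.8 and 89.4 in Control6 (-3.69 ± 1.69 (SE), adjusted p = 0.0961, trend-removed -1.07), with Control6 the lowest. In Control2 its replicates differed by 15.3-fold and in Control3 by 51-fold. limma did not call CXCL8, whereas edgeR and DESeq2 called it lower, at -5.13 and -5.15, and limma did so without Control3 replicate 1 (-5.10). IL1B had 13.7 and 161 in Control2, 12.4 and 279.5 in Control3 and 42.5 and 44.7 in Control6 (-0.30 ± 1.39 (SE), adjusted p = 0.861, trend-removed -0.08), and in this gene Control6 fell between the replicates of the other groups. CCL2, a monocyte attractant, had 1760 and 2271 in Control2, 2151 and 3012 in Control3 and 2625 and 2968 in Control6 (0.31 ± 0.22 (SE), adjusted p = 0.254), but its trend-removed difference of 2.30 (adjusted p = 0.000636) was called. LIF, a cytokine of the interleukin-6 family, had 3215 and 2931 in Control2, 4272 and 5042 in Control3 and 8939 and 8410 in Control6 (1.20 ± 0.16 (SE), adjusted p = 0.00129, trend-removed 0.46, not called).

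CXCL12, the chemokine that fibroblasts use to hold CXCR4-bearing cells, had 5119 and 959 in Control2, 1233 and 926 in Control3 and 17.6 and 49.5 in Control6 (-5.65 ± 0.72 (SE), adjusted p = 0.001, trend-removed -5.83). It was the cytokine gene with the largest fall, and Control6 held only 12 and 31 reads of it. The chemokine CXCL10 was not listed with Control6, and its replicates in the other groups were far apart, at 3.41 and 335 in Control2 and 35.5 and 635 in Control3. CXCL5 followed the same order, at 43.5 and 177 in Control2 and 56.8 and 327 in Control3, and was also not listed with Control6. CXCL10 and CXCL5 were picked out after their values were seen.

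Growth factors were higher for 7 (20.6%) and lower for 13 (38.2%) of 34 tested, near the 18% and 32.3% of all genes (41 members, median -0.42). After trend removal 10 were higher (29.4%, against 12.6%) and 3 lower (8.82%, against 12.9%), with a median of 0.22. ANGPTL4, an inhibitor of lipoprotein lipase induced by hypoxia and fatty acids, had 64 and 314 in Control2, 48 and 298 in Control3 and 11120 and 11750 in Control6 (6.44 ± 0.86 (SE), adjusted p = 0.00119, trend-removed 5.61). It had the largest rise among all genes with a mean of at least 100 in their highest group and Control6 apart from the others. STC2, a stanniocalcin induced by stress, had 29020 and 36200 in Control2, 31900 and 34710 in Control3 and 102800 and 102700 in Control6 (1.65 ± 0.19 (SE), adjusted p = 0.000764, trend-removed 1.28). WNT5B, a Wnt ligand, had 1963 and 3299 in Control2, 2233 and 2619 in Control3 and 13980 and 14740 in Control6 (2.53 ± 0.24 (SE), adjusted p = 0.000413, trend-removed 1.57). PDGFC, a platelet-derived growth factor, had 2411 and 3702 in Control2, 4428 and 3899 in Control3 and 827 and 776 in Control6 (-2.13 ± 0.22 (SE), adjusted p = 0.000517, trend-removed -0.84, not called). GDF15, a secreted stress cytokine, had 959 and 2025 in Control2, 1787 and 3289 in Control3 and 730.5 and 666 in Control6 (-1.40 ± 0.38 (SE), adjusted p = 0.0176, trend-removed -2.16). Its call was lost without Control6 replicate 1 (-1.46) or Control6 replicate 2 (-1.33) and after quantile normalization (-0.88). IGF2 had 68.3 and 1785 in Control2, 194 and 970.2 in Control3 and 116 and 83 in Control6 (-1.98 ± 1.30 (SE), adjusted p = 0.218, trend-removed -2.50), so that 1 library in each of Control2 and Control3 was high and the rest were low. Without Control2 replicate 1 IGF2 was called lower (-3.15).

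Of 9 genes for insulin-like growth factor binding and uptake tested (11 members), 3 were higher (33.3%) and none was lower, both before (median 0.90) and after trend removal (median 0.55). Of all genes, 18% were higher before and 12.6% after. The 3 were called with both fits. They were IGFBP3, IGFBP4 and IGF2R. IGFBP3, the main carrier of these factors, had 34110 and 17350 in Control2, 7071 and 10370 in Control3 and 86390 and 89430 in Control6 (2.61 ± 0.32 (SE), adjusted p = 0.000833, trend-removed 1.90). IGFBP4 had 49530 and 73890 in Control2, 44390 and 67510 in Control3 and 205100 and 220600 in Control6 (1.89 ± 0.28 (SE), adjusted p = 0.0018, trend-removed 1.02). IGF2R, the receptor that clears IGF2, had 14180 and 19050 in Control2, 18240 and 5498 in Control3 and 57480 and 44650 in Control6 (1.98 ± 0.47 (SE), adjusted p = 0.0105, trend-removed 2.02), and lost its call without Control6 replicate 1 (1.80) and on the deposited scale (1.13). IGFBP5 had 190200 and 292400 in Control2, 294900 and 148700 in Control3 and 442300 and 387000 in Control6 (0.90 ± 0.38 (SE), adjusted p = 0.0756, trend-removed 0.55) and was called higher without Control3 replicate 1 (1.14). IGFBP7 had 3506 and 8837 in Control2, 4599 and 11690 in Control3 and 10080 and 10650 in Control6 (0.70 ± 0.48 (SE), adjusted p = 0.241, trend-removed -0.06).

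**Figure D3:**
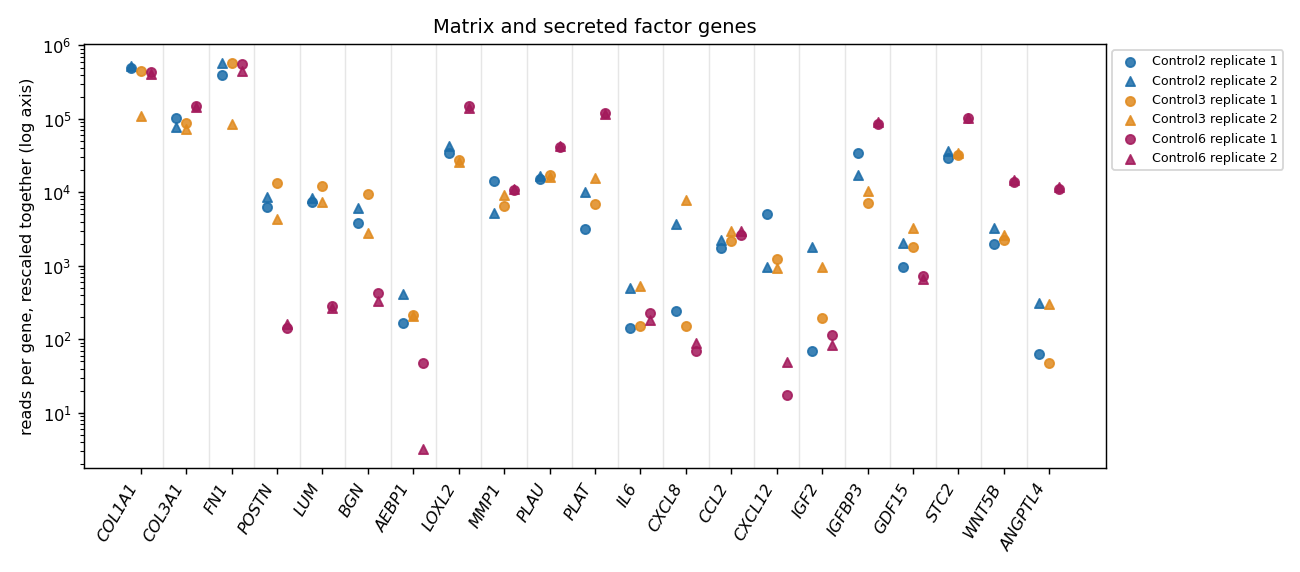
Rescaled reads (y axis, log scale) of matrix and secreted factor genes, 1 point per library, coloured by group and shaped by replicate. Control6 lies above all 4 other libraries for LOXL2, PLAU, PLAT, IGFBP3, STC2, WNT5B and ANGPTL4 and below them for POSTN, LUM, BGN, AEBP1, CXCL8, CXCL12 and GDF15, while replicate 2 of both Control2 and Control3 lies well above replicate 1 for IL6, CXCL8, IGF2 and ANGPTL4.

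Glucose uptake, glycolysis and hypoxia genes were higher for 20 (69%, against 18% of all genes) and lower for 3 of 29 tested (31 members, median 1.66). After trend removal they were higher for 14 (48.3%, against 12.6%) and lower for 2 (median 1.04). SLC2A1, the glucose transporter GLUT1, had 5044 and 9055 in Control2, 5238 and 6487 in Control3 and 56530 and 54970 in Control6 (3.15 ± 0.27 (SE), adjusted p = 0.000309, trend-removed 2.43). HK1, a hexokinase, had 7136 and 6143 in Control2, 5834 and 5607 in Control3 and 26340 and 24390 in Control6 (2.04 ± 0.16 (SE), adjusted p = 0.000291, trend-removed 1.31). LDHA, which turns pyruvate into lactate, had 30970 and 30040 in Control2, 21810 and 40940 in Control3 and 115000 and 120500 in Control6 (1.96 ± 0.28 (SE), adjusted p = 0.00155, trend-removed 3.61). SLC16A1, a lactate and pyruvate transporter, moved the other way, with 4280 and 3580 in Control2, 3508 and 4164 in Control3 and 386 and 369 in Control6 (-3.35 ± 0.18 (SE), adjusted p = 0.000229, trend-removed -1.04).

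Genes of the amino acid response, which the factor ATF4 controls when amino acids are short, were lower for 10 (47.6%, against 32.3% of all genes) and higher for none of 21 tested (22 members, median -1.13). After trend removal 1 was higher and 13 lower (61.9%, against 12.9%, median -1.32). PSAT1, an enzyme of serine synthesis, had 11850 and 9536 in Control2, 9724 and 10910 in Control3 and 1148 and 1260 in Control6 (-3.12 ± 0.17 (SE), adjusted p = 0.000229, trend-removed -1.71). XPOT, the exporter of transfer RNA, had 10900 and 10430 in Control2, 11750 and 10560 in Control3 and 368 and 346 in Control6 (-4.93 ± 0.16 (SE), adjusted p = 0.000229, trend-removed -2.45). MTHFD2, a mitochondrial folate enzyme, had 8610 and 5890 in Control2, 5634 and 8749 in Control3 and 701 and 658 in Control6 (-3.38 ± 0.25 (SE), adjusted p = 0.000271, trend-removed -1.18). For these 3 genes the 4 other libraries lay within a narrow band, and Control6 far under it. ASNS was not listed with Control6.

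Sterol synthesis genes gave 4 higher (17.4%) and 8 lower (34.8%) of 23 tested (24 members), near the shares over all genes, but 0 and 2 after trend removal, and 1 and 8 without Control3 replicate 2. Lysosomal genes were higher for 12 (37.5%, against 18% of all genes) and lower for 3 (9.38%, against 32.3%) of 32 tested (33 members, median 0.76). After trend removal they were higher for 8 (25.8%, against 12.6%) and lower for 2 (6.45%, against 12.9%) of 31 (median 0.50). On the deposited scale the counts were 2 and 5. GLB1, the lysosomal beta-galactosidase that the senescence stain detects, had 2811 and 3900 in Control2, 3747 and 3827 in Control3 and 9075 and 8860 in Control6 (1.34 ± 0.19 (SE), adjusted p = 0.00142), and its trend-removed difference of 0.65 was not called. FUCA1, a fucosidase, had 328 and 337 in Control2, 327 and 298 in Control3 and 1341 and 1427 in Control6 (2.10 ± 0.21 (SE), adjusted p = 0.000468, trend-removed 1.75). ASAH1, acid ceramidase, had 3479 and 4760 in Control2, 4926 and 4660 in Control3 and 1381 and 1213 in Control6 (difference -1.77) and 0.55 after trend removal.

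Of 20 NRF2 target and metallothionein genes tested (25 members), 4 were higher and 4 lower (20% each, against 18% and 32.3% of all genes). After trend removal 4 were higher and 3 lower (20% and 15%, against 12.6% and 12.9%). AKR1B1, an aldose reductase, had 6029 and 8124 in Control2, 5724 and 11260 in Control3 and 84420 and 88220 in Control6 (3.52 ± 0.30 (SE), adjusted p = 0.000314, trend-removed 2.72). AKR1C1 had 1420 and 1672 in Control2, 1074 and 2552 in Control3 and 14860 and 16290 in Control6 (3.28 ± 0.34 (SE), adjusted p = 0.000522, trend-removed 5.25). AKR1C2 is a near-identical copy of AKR1C1, so that reads may be shared between them, and it had 202 and 256 in Control2, 221 and 391 in Control3 and 1890 and 1890 in Control6 (2.87 ± 0.30 (SE), adjusted p = 0.000518, trend-removed 4.88). Interferon response genes were higher for 8 (38.1%, against 18% of all genes) and lower for 4 (19%, against 32.3%) of 21 tested (35 members, median 0.98). After trend removal they were higher for 3 (14.3%, near the 12.6% of all genes) and lower for 0. OAS3, a sensor of double-stranded RNA, had 677 and 805 in Control2, 592 and 739 in Control3 and 2732 and 2474 in Control6 (1.89 ± 0.20 (SE), adjusted p = 0.000579, trend-removed 1.46). B2M, the light chain of class I antigen presentation, had a difference of -2.10, which became 0.37 after trend removal. Of 16 immediate early genes tested (21 members), 4 were higher and 1 lower (25% and 6.25%, against 18% and 32.3% of all genes). After trend removal the counts were 1 and 2 (6.25% and 12.5%, against 12.6% and 12.9%). DUSP5, a phosphatase that restrains ERK, had 1219 and 2634 in Control2, 1531 and 1802 in Control3 and 12050 and 12750 in Control6 (2.84 ± 0.32 (SE), adjusted p = 0.000618, trend-removed 1.91).

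**Figure D4:**
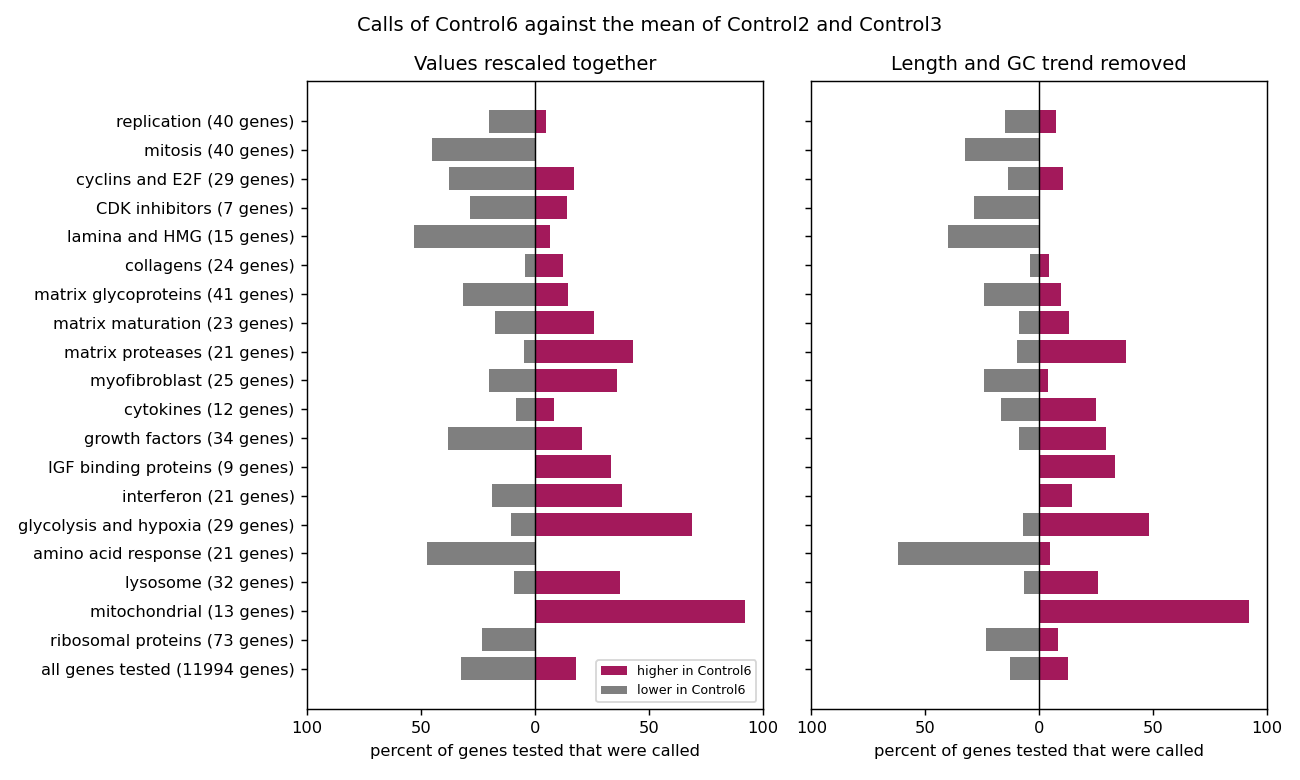
Percent of each list's tested genes (x axis) called higher (right of 0) or lower (left of 0) in Control6 than in the mean of Control2 and Control3, with the lists on the y axis, before (left panel) and after (right panel) trend removal. The mitosis, lamina and amino acid response lists lie to the left and the glycolysis, protease and mitochondrial lists to the right in both panels, while all genes tested went from 18% higher and 32.3% lower to 12.6% and 12.9%.

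The labelled cell type was compared with its markers. All 15 fibroblast markers were listed in all 3 experiments. Of these, 2 were higher and 4 lower in Control6 (13.3% and 26.7%, against 18% and 32.3% of all genes, median 0.47). After trend removal 2 were higher and 2 lower (13.3% each, against 12.6% and 12.9%). FAP, fibroblast activation protein, had 1741 and 4495 in Control2, 5536 and 2330 in Control3 and 182 and 172 in Control6 (-4.16 ± 0.48 (SE), adjusted p = 0.000726, trend-removed -1.69). P4HB, the prolyl hydroxylase subunit that is abundant in collagen-making cells, had 35730 and 34840 in Control2, 33980 and 33150 in Control3 and 96200 and 93640 in Control6 (1.46 ± 0.18 (SE), adjusted p = 0.000816, trend-removed 0.51, not called). Quantile normalization put the fibroblast median at -0.56 relative to all genes. Of 4 lung mesenchyme markers 3 were tested and none was called (median 0.30, trend-removed -0.25). Of 8 leukocyte markers none was listed in all 3 experiments, and PTPRC was listed in none. Of 10 epithelial markers 1 was listed in all, summing to 46.2 to 86.4 per library, and CDH1 was listed in none. Of 8 endothelial markers 2 were listed in all and summed to 405 to 1105 in the other groups and 717 and 527 in Control6, and PECAM1 and CDH5 were listed in none. Of 6 muscle and pericyte markers 2 were listed in all, summing to 4691 to 12050 in Control2 and Control3 and to 20810 and 18670 in Control6. MCAM made most of that sum, at 15160 and 14220 in Control6. The part of other cells in any result was not tested.

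Position and library content differed as well. Of 37 HOX genes 13 were tested, and 5 were higher and 2 lower (38.5% and 15.4%, against 18% and 32.3% of all genes, median 0.69). After trend removal the counts were 0 and 4 (30.8% lower, against 12.9%, median -0.24). HOXA5, a gene of lung mesenchyme, had 1287 and 759 in Control2, 1149 and 1054 in Control3 and 224 and 342 in Control6 (-1.91 ± 0.31 (SE), adjusted p = 0.00239, trend-removed -2.44). HOXB5 had 1345 and 1835 in Control2, 1599 and 1242 in Control3 and 3991 and 4057 in Control6 (1.44 ± 0.21 (SE), adjusted p = 0.00171, trend-removed 0.50, not called). All listed genes named with the prefix MT- took 6.69% and 6.68% of reads in Control6 and 2.77% to 5.34% in the other libraries. Of the 13 protein-coding genes of the mitochondrial genome, 12 were higher (92.3%, against 18% of all genes) and none lower. The same counts were found after trend removal (against 12.6% higher), but 8 were higher without Control3 replicate 2, 5 at equal totals, 2 after quantile normalization and 1 on the deposited scale. MT-ATP8, a subunit of the ATP synthase whose gene overlaps MT-ATP6, had 7584 and 11010 in Control2, 8113 and 3652 in Control3 and 32740 and 28590 in Control6 (2.12 ± 0.35 (SE), adjusted p = 0.00253, trend-removed 4.19). Of 73 ribosomal protein genes tested, 17 were lower (23.3%, below the 32.3% of all genes) and none higher. After trend removal 17 were lower (23.3%, against 12.9%) and 6 higher (8.22%, against 12.6%). Of 9 histone genes tested (33 members), 4 were higher (44.4%, against 18% of all genes) and none lower (median 0.75). After trend removal 3 were higher (33.3%, against 12.6%) and 1 lower (11.1%, against 12.9%), with a median of -0.15. H1-2, a linker histone, had 1041 and 714 in Control2, 691 and 724 in Control3 and 8016 and 9031 in Control6 (3.44 ± 0.21 (SE), adjusted p = 0.000229, trend-removed 2.58).

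Beside ANGPTL4, the largest rises were in ENSG00000281181, MAPK8IP2, CNNM1 and DYSF. ENSG00000281181, which has no symbol in the files, had 142 and 89.9 in Control2, 140.3 and 259 in Control3 and 12240 and 6772 in Control6 (5.94 ± 0.39 (SE), adjusted p = 0.000245, trend-removed 5.11). MAPK8IP2, a scaffold of JNK signalling, had 29.9 and 55.7 in Control2, 70.2 and 55.7 in Control3 and 987 and 915 in Control6 (4.21 ± 0.35 (SE), adjusted p = 0.000309, trend-removed 3.77). CNNM1, of a family of magnesium transport regulators, had 24.8 and 71.3 in Control2, 30.2 and 30.7 in Control3 and 710 and 645 in Control6 (4.20 ± 0.46 (SE), adjusted p = 0.000606, trend-removed 3.68). DYSF, dysferlin, which repairs the plasma membrane, had 60.6 and 141 in Control2, 36.4 and 50.1 in Control3 and 1222 and 1097 in Control6 (4.18 ± 0.41 (SE), adjusted p = 0.000431, trend-removed 3.71). The 5 largest falls were TOP2A, NBN, CDK1, CXCL12 and POSTN. NBN, a subunit of the complex that senses DNA breaks, had 1702 and 2212 in Control2, 2637 and 757 in Control3 and 35.1 and 23.9 in Control6 (-5.79 ± 0.51 (SE), adjusted p = 0.000333, trend-removed -2.85).

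Control3 and Control2 were not told apart. Of 11994 genes none was called higher (0.0%) or lower (0.0%) in Control3 than in Control2 by limma, and 263 genes had an unadjusted p under 0.05. edgeR called none, with 287 at an unadjusted p under 0.05, and DESeq2 called 3 higher (0.025%) and 5 lower (0.0417%), with 378. Both Control3 libraries lay above both Control2 libraries for 1450 genes (12.1%) and below for 1375 (11.5%). The largest differences among the genes named here were -1.78 ± 1.19 (SE, adjusted p = 0.886) for MKI67 and -1.51 (adjusted p = 0.886) for IGFBP3. The comparison rested on the odd library: without Control3 replicate 1, which leaves Control3 replicate 2 alone and assumes that it varies like the other groups, 161 genes were higher and 1066 lower. Without Control3 replicate 2 none was.

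Instead, the proliferation lists varied between libraries of the same experiment. In Control2, 40 of 40 tested mitosis genes were lower in replicate 2 than in replicate 1, against 5305 of all 11994 genes. Their median was -1.86 (trend-removed -1.88), and the replication list fell by a median of 1.26. In Control3, 38 of 40 mitosis genes were lower in replicate 2, against 6641 of all 11994. Their median was -0.79 (trend-removed -0.69), and the replication median was -0.04. In Control6 the mitosis median between replicates was near 0 (-0.0028), with 20 genes on each side. Summed over the 40 mitosis genes, the rescaled reads were 115600 and 38030 in Control2, 58740 and 28360 in Control3, and 20580 and 20220 in Control6. Control2 replicate 1 was thus the highest of all, and Control6 was lowest in both libraries. Genes of the interferon response went the other way within experiments: 19 of 21 were higher in replicate 2 in Control2 (median 1.17) and 19 of 21 in Control3 (median 0.998), against 6689 and 5353 of all 11994 genes. Matrix collagen sums were 1495000 and 1825000 in Control2, 1765000 and 795900 in Control3, and 2036000 and 1889000 in Control6, so the low library was again Control3 replicate 2. Its median difference from replicate 1 over the collagen genes was -0.59, and 0.09 after trend removal.

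**Figure D5:**
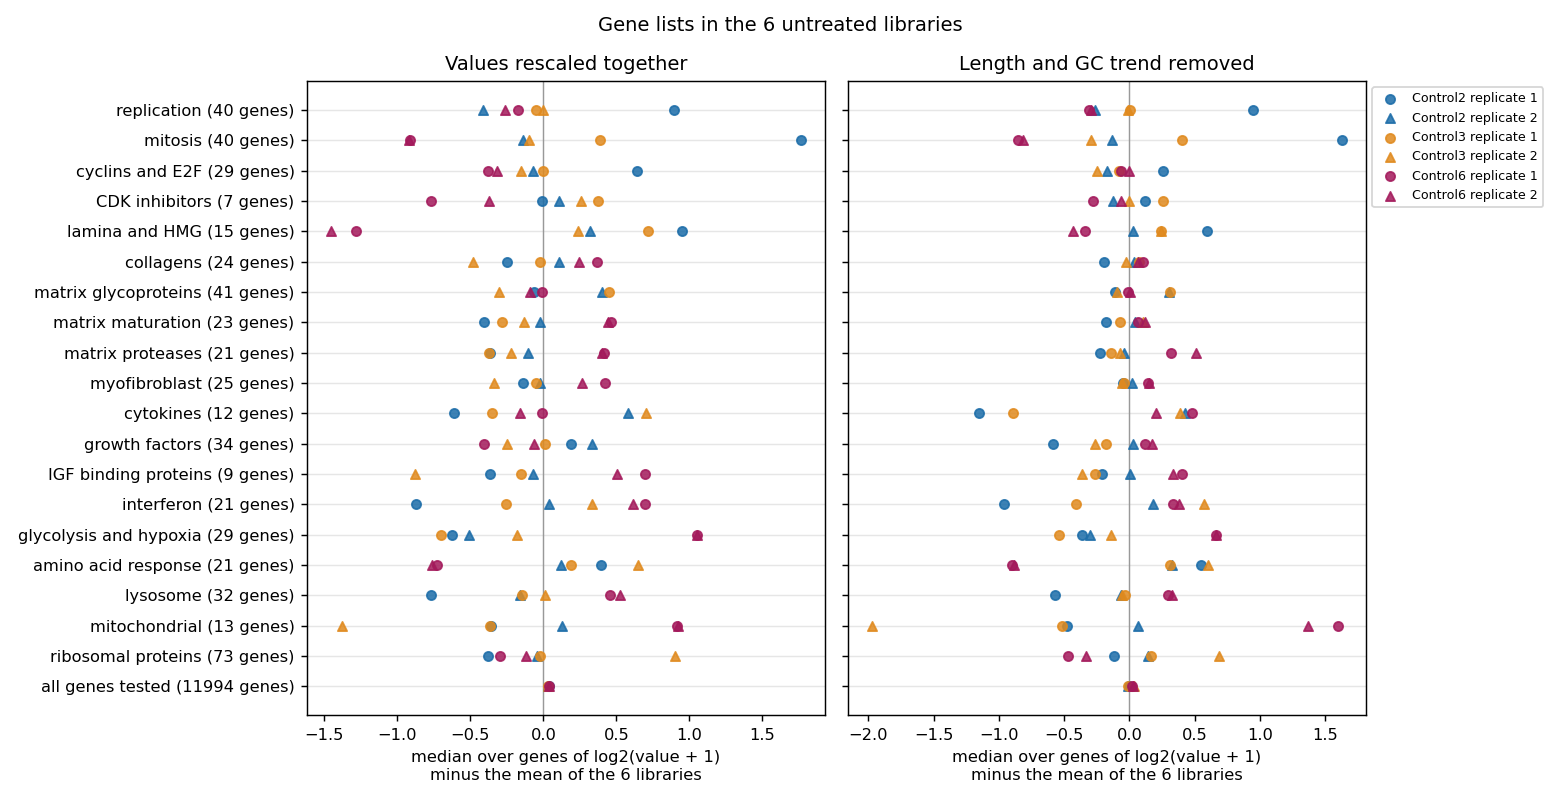
Median deviation of each list (y axis) in each library from the mean of the 6 libraries, on the log2(value + 1) scale (x axis), before (left panel) and after (right panel) trend removal, 1 point per library. In the left panel Control2 replicate 1 is the highest library for mitosis at 1.76 and both Control6 libraries are the lowest at -0.92, while Control3 replicate 2 stands apart for the mitochondrial genes at -1.38 and the ribosomal protein genes at 0.90.

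The pyruvate libraries of the Control6 experiment were placed on the same scale through the Control6 factors, as values with no test here. They held MKI67 at 4436 and 4441, LMNB1 at 3475 and 3381, HMGB2 at 1553 and 1630 and CDKN1B at 1347 and 1521, and in these 4 genes lay nearer to Control2 and Control3 than to Control6. CDKN2A was at 291 and 315 and CDKN1A at 14500 and 14620, below all 6 untreated libraries. LDHA, at 117600 and 118300, was level with Control6. POSTN was at 1502 and 1639 and LUM at 1227 and 1074, between Control6 and the other controls. No trend was removed from these values. LUM lies in the lowest GC bin and POSTN in the next. Against the mean of Control2 and Control3, those bins had medians of -1.19 and -0.57 for pyruvate. For Control6 they were -3.07 and -2.64.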

How the data were processed

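The data were bulk RNA-seq profiles of 6 untreated IMR90 libraries. Per the labels and methods, the authors used trim_galore 0.6.10 for trimming, hisat2 2.2.1 for alignment to hg38, samtools 1.7 for alignment files, featureCounts 2.0.6 for reads per gene and, for normalization, DESeq2 1.34.0. What they deposited is a signal in which a library's read counts have all been divided by its size factor. Annotation and strand setting of the counting are not given in the sources used here, so reads may be shared between overlapping or antisense genes and between near-identical copies. The study's methods name 2 sequencing providers with different instruments, and which of them made these libraries is not given. Each experiment's file listed only genes above a low read limit, which was higher for Control6. In the second-highest library, treated ones included, the lowest listed gene had 20 reads there and 10 with Control2 and with Control3.

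Every value was a whole multiple of 1 read (100% of values, tolerance 0.02), so reads were recovered. Genes listed in all 3 experiments averaging 10 or more were rescaled together by the median of ratios, a filter that all 11994 shared genes passed. The filtered values were analysed as log2(value + 1) with limma (version 3.58.1, eBayes with an intensity trend, 3 residual degrees of freedom) in R (version 4.3.3), with Benjamini-Hochberg adjustment over all genes tested and a fold change that is understated for genes with few reads. For trend removal, splines on GC content and length of the canonical GENCODE transcript (hg38) were subtracted from each library's deviation from the mean of the libraries. edgeR (version 4.0.16) and DESeq2 (version 1.42.0) were alternatives on the recovered reads. Other alternatives changed the pseudocount, filter, scaling, intensity trend, thresholds, libraries fitted and replicate block, and left out each library. Combinations of trend removal with the block, or without Control3 replicate 2, were added after seeing the data. In counts simulated with known changes, 51.5% of simulated log2 changes of 1.5 and 81% of those of 2 were called for Control6 against the others, and 30% and 67% for Control3 against Control2 (11990 genes). The simulated libraries shared the same mean profile, few genes were changed and no GC trend was included. These rates therefore need not hold for the real comparison with Control6. Same-numbered replicates did not deviate together in every pair of groups (correlations 0.0895, 0.00876 and 0.139), so the numbers were not taken to pair libraries.

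The groups, gene lists and members were chosen with earlier results of these data known. Genes named were a fixed panel, up to 3 called genes per list with the smallest adjusted p (up to 2 for Control3 against Control2), members not shared by all experiments, and the 5 largest rises and falls averaging 100 or more in the highest group, and with Control6 apart from the other libraries. A few genes that this rule names, and 1 gene list, are not reported here. Promoter windows came from RefSeq (GRCh38.p14), with the first entry of each gene used. Tables and plots were made in Python 3.11.15 with pandas 2.3.3, numpy 2.4.6, scipy 1.17.1 and matplotlib 3.10.9.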

Additional observations from a re-analysis of the deposited data

How the results depend on the processing

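The count of genes called in Control6 against the mean of Control2 and Control3 (6031) was 3028 with the length and GC trend removed, 3128 with the replicate block added to that, and 3226 without Control3 replicate 2 and with the trend removed. The fold of GC-poor genes changed most, and the cause was not tested. Against Control2 alone the count (5975) was 2860, 3010 and 3039 in these settings, and against Control3 alone (5654) it was 2768, 2902 and 2905. Leaving out 1 library at a time gave 4260 to 6346, 3768 to 6223 and 3388 to 6130 for the 3 comparisons, with the lowest counts without a Control6 library. For Control3 against Control2 the count was 0, with 8 by DESeq2 and 0 to 1227 when 1 library was left out. The replicate number as a block, on libraries that share only a number, gave 6116 calls for Control6 against the others and 0 for Control3 against Control2. Of 89 named genes called in the first comparison, 58 were still called in the same direction after trend removal, 67 on the deposited scale, 81 at equal totals, 78 after quantile normalization and 89 under the replicate block. Among these called genes the sign turned after trend removal, with and without the block, for SKP2 (0.0045), FKBP14 (0.67), B2M (0.37) and ASAH1 (0.55). With 2 libraries per group, and counts of 4 to 40 reads behind several Control6 values, precision was limited for the genes that fell furthest.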
